A study of Mus musculus with 2 samples.

Results

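The genes described here are 10 genes of antigen presentation, out of 31053 genes in the deposited tables. They were chosen by name: the class II chains H2-Aa, H2-Ab1 and H2-Eb1 with the invariant chain gene Cd74, the class II transactivator gene Ciita, and the class I genes H2-K1, H2-D1, H2-T23, H2-Q7 and B2m. The cells were LSK CD150+ cells of mouse bone marrow, a fraction negative for lineage markers and positive for Sca-1, Kit and CD150 that holds stem and early progenitor cells. One library was labelled RUNX1 KO and 1 was labelled RUNX1 WT, each from about 10000 sorted cells read by 10x Genomics 3′ single-cell RNA-seq. The design text gives a Runx1 F/F Mx1-Cre mouse model. Mx1-Cre is a recombinase gene switched on by interferon, and whether or when either group received an inducer, the age of the mice and how many mice gave each library are not given in the sources used here. The sources also leave out whether the WT mice carried Mx1-Cre.

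MHC class I molecules, made of a heavy chain such as H2-K1 or H2-D1 and the light chain beta-2-microglobulin (B2m), sit on nearly every nucleated cell and show its peptides to CD8 T cells and natural killer cells. Class II molecules are pairs of an alpha and a beta chain that show peptides to CD4 T cells, and they are made mainly by dendritic cells, B cells and macrophages. The invariant chain Cd74 holds the class II groove closed on the way to the endosome. Ciita is a coactivator that binds no DNA itself and is recruited to class II promoters by factors on their X and Y boxes. Interferon gamma raises both classes.

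After a filter of at least 500 genes and at most 10% mitochondrial UMIs, 10769 of 11398 barcodes were kept in the KO-labelled library and 9472 of 9969 in the WT library. Median depth was 9310 UMIs per cell in the KO-labelled library and 9884 in the WT library. Levels are given as UMIs per 1000000 UMIs (CPM). Runx1 stood at 196 CPM in the KO-labelled library against 104 CPM in the WT library. A 3′ tag count does not test for the deletion, whose position no label gives, so every direction below is that of the library labelled KO. The libraries also differed in sex: 9.04% of KO-labelled cells and 70.6% of WT cells read as male by Y-linked genes. By Xist UMIs in the absence of Y-linked ones, 82.9% of KO-labelled cells and 9 WT cells (0.0950%) read as female. The other cells were left unassigned. Xist stood at 1319 CPM in the KO-labelled library and 1.78 CPM in the WT library. Genotype label, sex and library therefore cannot be told apart, and comparing male cells alone takes out only the difference in sex. Of the barcode sequences 39 occurred in both libraries. There was 1 library per genotype, so no difference could be set against a replicate and none was tested. The intervals given are exact, at 95%, and cover only counting error.

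For 7 of the 10 genes the RefSeq promoter table (GRCm38.p6) held an upstream window, and 4 are shown because they set 2 class II genes beside 2 class I genes whose levels behaved differently. Each is the 250 bases before the start used in that table, 5′ to 3′ on the gene's strand. Capitals mark the Y box letters ATTGG, the X2-like letters TGACG, the interferon regulatory factor type letters AANNGAAA and the kB letters GGGGATTCC, each searched on both strands. In H2-Aa the X2-like match on both strands overlaps itself.
H2-Aa, chr17:34287824-34288073, minus strand: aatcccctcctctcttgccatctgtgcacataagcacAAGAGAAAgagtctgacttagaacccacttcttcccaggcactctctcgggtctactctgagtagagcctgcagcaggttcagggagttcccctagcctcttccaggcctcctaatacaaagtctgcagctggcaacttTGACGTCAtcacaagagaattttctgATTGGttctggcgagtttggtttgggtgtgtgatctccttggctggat
H2-Eb1, chr17:34305617-34305866, plus strand: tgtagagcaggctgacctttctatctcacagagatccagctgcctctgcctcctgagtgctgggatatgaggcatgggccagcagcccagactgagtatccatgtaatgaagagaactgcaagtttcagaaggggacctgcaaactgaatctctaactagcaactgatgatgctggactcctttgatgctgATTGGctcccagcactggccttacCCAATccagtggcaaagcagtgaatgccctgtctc
H2-K1, chr17:34000348-34000597, minus strand: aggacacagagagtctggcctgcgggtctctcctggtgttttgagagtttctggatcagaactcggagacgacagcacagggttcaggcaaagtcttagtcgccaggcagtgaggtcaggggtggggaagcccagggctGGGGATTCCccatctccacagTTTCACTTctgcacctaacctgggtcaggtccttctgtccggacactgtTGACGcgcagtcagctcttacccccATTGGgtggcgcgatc
B2m, chr2:122147437-122147686, plus strand: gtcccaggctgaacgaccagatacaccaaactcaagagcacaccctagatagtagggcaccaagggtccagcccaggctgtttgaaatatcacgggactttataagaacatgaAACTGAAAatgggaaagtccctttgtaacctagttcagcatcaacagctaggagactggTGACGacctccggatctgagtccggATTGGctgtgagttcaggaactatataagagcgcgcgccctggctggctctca
The Y box letters were in all 7 windows, as in 33.8% of the 32851 windows in the table. In 5 of the 7 (H2-Aa, H2-K1, H2-D1, B2m and H2-Q7) the X2-like letters were also present, as in 17.8% of all windows, and their first base lay 24 to 26 bases upstream of that of ATTGG. The interferon regulatory factor type letters were in 6 of the 7 windows, H2-Eb1 being without them, and in 21.3% of all windows. The kB letters were in H2-K1, H2-D1 and H2-Q7 and in 0.213% of all windows. The letters TGTGGT, a core bound by RUNX proteins, were in 0 of the 7 windows and in 14.0% of all windows. The starts in the promoter table can differ from the gene spans given below. The H2-D1 window (35262844 to 35263093) lies inside the span of H2-D1, and the H2-T23 window (36032702 to 36032951) overlaps that of H2-T23. A match is a description of letters, and a window without one says nothing about binding.

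Class I transcripts were abundant in both libraries and differed little between them. H2-K1 (chromosome 17, 33996017 to 34000347, minus strand, GRCm38) encodes one of the classical heavy chains and stood at 1294 CPM in the KO-labelled library and 1283 CPM in the WT library, a ratio of 1.01 (1.002 to 1.02). H2-D1 (chromosome 17, 35262730 to 35267499, plus strand), the other classical heavy chain, stood at 1027 CPM in the KO-labelled library and 934 CPM in the WT library, a ratio of 1.10 (1.09 to 1.11). B2m (chromosome 2, 122147686 to 122153083, plus strand) stood at 1034 CPM in the KO-labelled library and 1058 CPM in the WT library, a ratio of 0.977 (0.969 to 0.985) that lay above 1 under TMM scaling, with the stricter cell filter and with totals that leave out ribosomal protein and mitochondrial genes. Thus the 2 heavy chains and the light chain had similar levels, on a scale where 1 UMI stands for 1 captured transcript whatever its length.

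H2-T23 (chromosome 17, 36029773 to 36032855, minus strand), which encodes Qa-1, the ligand of the NKG2A receptor, had the largest ratio of the class I genes: 152 CPM in the KO-labelled library and 126 CPM in the WT library, or 1.21 (1.19 to 1.24). It was also higher between male cells, at 1.28 (1.21 to 1.35). H2-Q7 (chromosome 17, 35439155 to 35443773, plus strand), a Qa-2 gene, stood at 431 CPM in the KO-labelled library and 482 CPM in the WT library, a ratio of 0.895 (0.884 to 0.905). Its reads can fall on near-identical Q-region genes, so its level is uncertain. Its neighbour H2-Q6 had a ratio on the other side of 1, at 1.10 (1.08 to 1.13). No source used here states the strand setting of the counting. Patl2 and A930015D03Rik overlap B2m and H2-T23 on the other strand, and whether any of their reads were counted for them was not tested. The same holds for H2-Eb1 and Gm20513 and for Ciita and Dexi, and Cd74 shares its strand with Mir5107. Summed over the 5 genes, class I made up 3939 CPM in the KO-labelled library and 3883 CPM in the WT library, a ratio of 1.01 (1.01 to 1.02), while the median log2 ratio was -0.07 over the 5904 genes that reached 20 CPM in at least 1 library.

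Class II transcripts were less abundant and lower in the KO-labelled library. H2-Aa (chromosome 17, 34282744 to 34287823, minus strand), the alpha chain of I-A, stood at 48.7 CPM in the KO-labelled library and 65.2 CPM in the WT library, a ratio of 0.746 (0.721 to 0.773). H2-Ab1 (chromosome 17, 34257689 to 34269419, plus strand), the beta chain of I-A, stood at 104 CPM in the KO-labelled library and 111 CPM in the WT library. Its ratio of 0.940 (0.917 to 0.963) lay on the other side of 1 under TMM scaling. H2-Eb1 (chromosome 17, 34305867 to 34316674, plus strand), the beta chain of I-E, stood at 30.3 CPM in the KO-labelled library and 43.6 CPM in the WT library, a ratio of 0.695 (0.666 to 0.726).

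The widest gap was in Cd74 (chromosome 18, 60803848 to 60812652, plus strand), at 111 CPM in the KO-labelled library and 184 CPM in the WT library, a ratio of 0.604 (0.591 to 0.618). Ciita (chromosome 16, 10480059 to 10528418, plus strand) was rare, with 361 UMIs in the KO-labelled library and 498 in the WT library, or 3.03 CPM and 4.42 CPM. Its ratio was 0.685 (0.596 to 0.786). The sum over H2-Aa, H2-Ab1, H2-Eb1 and Cd74 was 294 CPM in the KO-labelled library and 404 CPM in the WT library, a ratio of 0.729 (0.719 to 0.739). Of the 9 genes at 20 CPM or more, only Cd74 was at least 1.5-fold apart. Over all genes at that level 4.29% were, and 2.03% were lower by that much in the KO-labelled library. No member was 2-fold apart, beside 1.49% of all genes, and between male cells 0 of 9 were 1.5-fold apart, beside 4.68%. The count of members 1.5-fold apart was 3 with the stricter cell filter and 3 with equal weight for the 5 marker-positive populations.

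**Figure D1:**
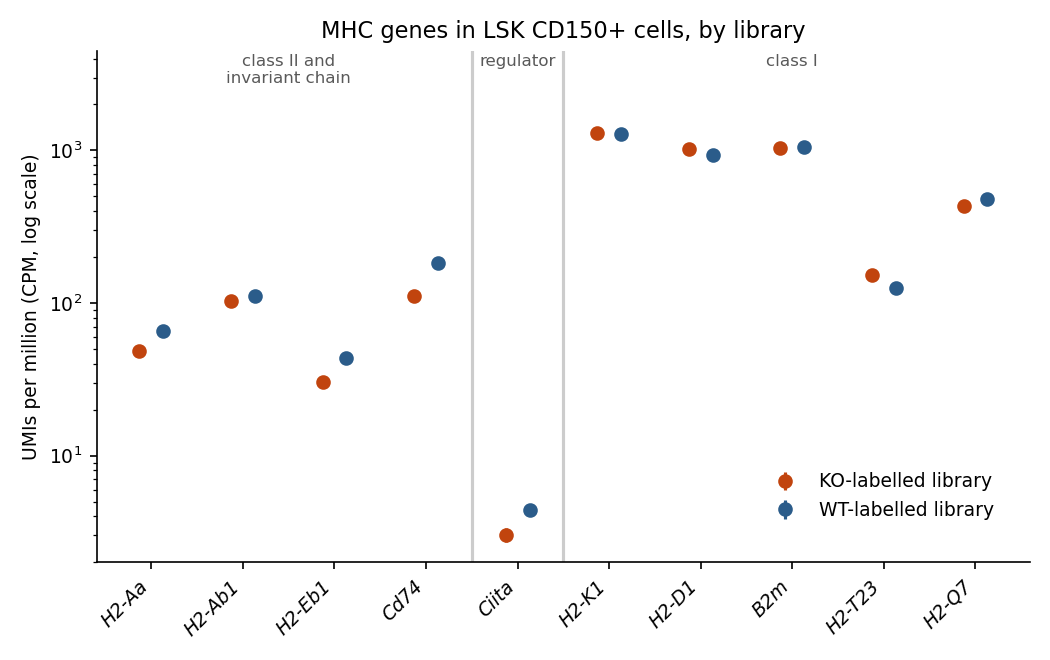
Level of each gene in CPM (log scale) over all kept cells of the KO-labelled library (left point) and the WT library (right point), with exact Poisson intervals, most of them smaller than the point. H2-K1, H2-D1 and B2m lie between 934 and 1294 CPM in both libraries, and the 4 class II genes lie between 30.3 and 184 CPM with Cd74 furthest apart.

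The class II UMIs sat in very few cells. In the KO-labelled library 79 cells (0.734% of kept cells) held 50% of them, and in the WT library 65 cells (0.686%) did. For class I the same share took 3317 cells (30.8%) in the KO-labelled library and 2742 cells (28.9%) in the WT library, close to the 3211 and 2650 cells that held 50% of all UMIs. Among the class II genes, Cd74 was the most concentrated in the KO-labelled library, with 50% of its UMIs in 41 cells, against 53 cells in the WT library. H2-Ab1 was the most spread out, with 50% of its UMIs in 812 cells of the KO-labelled library against 117 cells of the WT library.

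**Figure D2:**
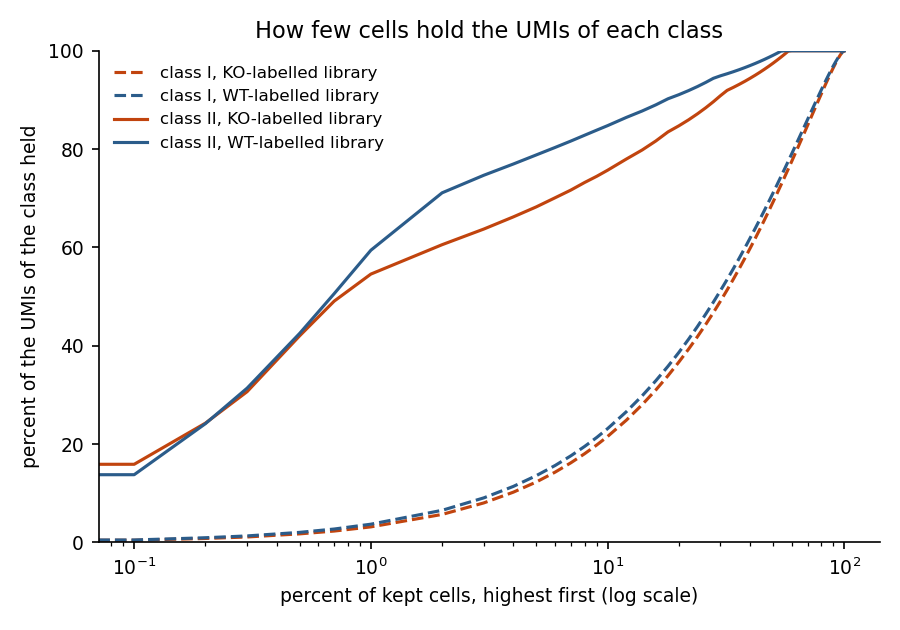
Percent of the UMIs of each class (vertical axis) held by the given percent of kept cells, ranked from the highest cell down (horizontal axis, log scale), for class II (solid) and class I (dashed) in the KO-labelled and WT libraries. The 1% of cells highest in class II hold 54.6% of class II UMIs in the KO-labelled library and 59.4% in the WT library, against 3.16% and 3.71% for class I.

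Cells with 50 or more class II UMIs, a limit set after the values were seen, numbered 97 (0.901%) in the KO-labelled library and 136 (1.44%) in the WT library. They held 53.3% of class II UMIs in the KO-labelled library and 67.2% in the WT library, but 0.638% and 1.16% of class I UMIs. Their depth was ordinary, with a median of 8929 UMIs in the KO-labelled library and 9571.5 in the WT library. Ciita stood at 127 CPM in these cells of the KO-labelled library and 152 CPM in those of the WT library, against 1.98 CPM and 2.47 CPM in the other cells. The class I sum was lower in them, at 2987 CPM in the KO-labelled library and 3444 CPM in the WT library, against 3947 CPM and 3888 CPM in the other cells. Its genes were split: H2-K1 (729.7 CPM in the KO-labelled library and 943 CPM in the WT library), B2m (754 CPM and 899.8 CPM) and H2-Q7 (118 CPM and 214 CPM) were lower than in the other cells of the same library. H2-D1 was higher, at 1176 CPM in the KO-labelled library and 1172 CPM in the WT library, against 1026 CPM and 931 CPM in the other cells, and so was H2-T23, at 209 CPM and 215 CPM against 152 CPM and 125 CPM.

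The genes furthest above the other cells in both libraries, leaving out the class II genes, were led by Xcr1, Batf3 and Plbd1, which were chosen after their values were seen. Xcr1 and Batf3, a chemokine receptor and a transcription factor of type 1 dendritic cells, stood at 22.9 CPM and 178 CPM in the class II-rich cells of the KO-labelled library and at 96.5 CPM and 239 CPM in those of the WT library, and at 0.67 CPM or less in the other cells of either library. At least 1 of the 8 dendritic cell markers had a UMI in 96 of 97 cells of the KO-labelled library and 132 of 136 of the WT library (98.97% and 97.1%), against 64.4% and 68.4% of all kept cells. All 8 were detected in these cells of both libraries, as they were among all kept cells. The list includes Bst2, which was common elsewhere. It stood at 206 CPM and 191 CPM in these cells, against 105 CPM and 122 CPM in the other cells. A UMI of the 6-gene macrophage and monocyte list was in 94.8% of these cells of the KO-labelled library and 91.2% of those of the WT library, against 11.3% and 15.7% of all kept cells. The lineage markers of other cells were also present: Igkc, an immunoglobulin light chain, stood at 34749 CPM in these cells of the KO-labelled library and 27036 CPM in those of the WT library, and a UMI of the 5-gene plasma cell list was in 57.7% and 68.4% of them, against 46.9% and 56.9% of all kept cells. Of the macrophage and monocyte list, the chemokine receptor gene Ccr2 was at 610.1 CPM in those of the KO-labelled library and 442 CPM in those of the WT library, and the complement gene C1qa at 134 CPM and 6.12 CPM. In the KO-labelled library Csf1r, Adgre1 and C1qb were also above the other cells, and Ly6c2 was not (53.8 against 56.9 CPM). In the WT library Csf1r (1.36 against 3.57 CPM) and Ly6c2 (38.1 against 83.5 CPM) were lower than in the other cells. There Adgre1 (0.680 against 0.729 CPM) and C1qb (4.76 against 4.60 CPM) were about even. The 5-gene B cell list had a UMI in 32.0% and 22.8% of the class II-rich cells, against 31.4% and 28.2% of all kept cells. Of its genes Cd79a, a chain of the B cell receptor, was at 41.9 CPM in class II-rich cells of the KO-labelled library and 26.5 CPM in those of the WT library, against 0.981 CPM and 1.88 CPM in the other cells, and Pax5 had 0 UMIs in class II-rich cells of both. What part cells sharing a droplet, free RNA or cells carried through the sort had in these levels was not tested.

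Without the class II-rich cells the class II sum was 139 CPM in the KO-labelled library and 134 CPM in the WT library, a ratio of 1.03 (1.01 to 1.06), so the lower sum was no longer seen. Leaving these cells out selects on the class II count itself, so the values below describe only the cells left. The individual genes did not close up alike. H2-Ab1 then stood at 76.5 CPM in the KO-labelled library and 54.7 CPM in the WT library, a ratio of 1.40 (1.35 to 1.44). Cd74 stood at 25.6 CPM in the KO-labelled library and 44.0 CPM in the WT library, a ratio of 0.583 (0.557 to 0.610), about as far apart as with all cells. H2-Aa (1.07, 1.01 to 1.14) and H2-Eb1 (0.978, 0.913 to 1.05) were close to even, and Ciita stood at a ratio of 0.7999 (0.669 to 0.956). Of the 8 genes at 20 CPM or more, 1 was at least 1.5-fold apart (Cd74, lower), beside 4.35% of all genes either way. Between male cells the opposite ratios of H2-Ab1 (1.39, 1.28 to 1.498) and Cd74 (0.556, 0.484 to 0.637) were also present, over 964 cells of the KO-labelled library and 6603 of the WT library. Class I ratios moved by less than 0.01 when the class II-rich cells were left out.

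**Figure D3:**
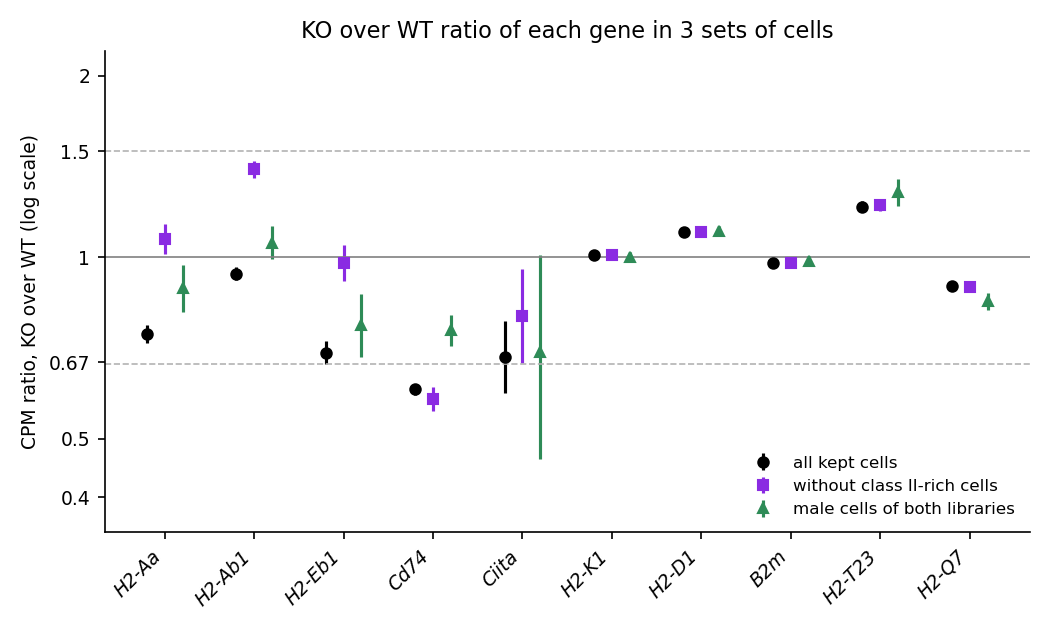
Ratio of CPM in the KO-labelled library over the WT library for each gene (log scale) with all kept cells (circles), without class II-rich cells (squares) and between male cells (triangles), with exact 95% intervals. The dashed lines are 1.5-fold either way. H2-Ab1 moves above 1 and Cd74 stays near 0.6 when class II-rich cells are left out, while the class I genes keep their ratios.

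The make-up of class II UMIs changed with how many a cell had. In cells with 1 or 2 class II UMIs, H2-Ab1 gave 76.0% of them in the KO-labelled library and 66.1% in the WT library, and Cd74 gave 7.62% and 14.2%. In the class II-rich cells H2-Ab1 gave 17.9% in the KO-labelled library and 20.8% in the WT library, and Cd74 gave 54.8% and 51.9%. The class II UMIs of the many cells with 1 or 2 therefore did not have the gene proportions of the class II-rich cells of the same library. In cells with 10 to 49 class II UMIs Cd74 gave 42.1% in the KO-labelled library and 57.2% in the WT library. Those 202 and 256 cells were rich in Procr-positive cells, at 24.3% in the KO-labelled library and 44.9% in the WT library, against 7.32% and 9.90% of all kept cells. The plasma cell list stood at 22767 CPM in them in the KO-labelled library and 45664 CPM in the WT library, and its part in the class II counts was not tested.

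**Figure D4:**
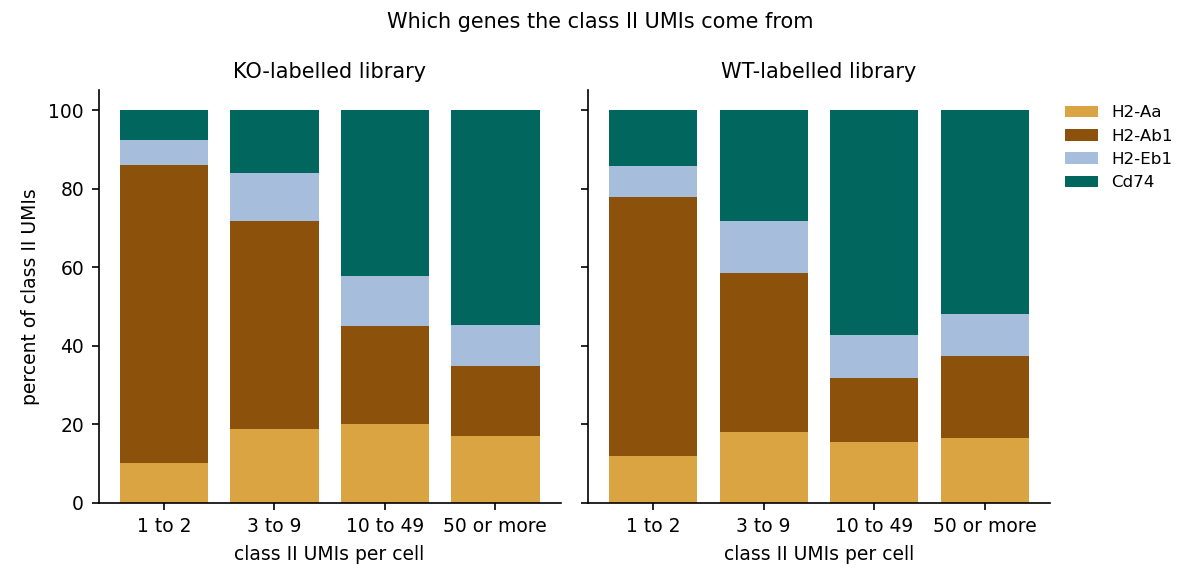
Percent of class II UMIs that came from H2-Aa, H2-Ab1, H2-Eb1 and Cd74 (vertical axis) in cells grouped by their number of class II UMIs (horizontal axis), in the KO-labelled library (left) and the WT library (right). The H2-Ab1 share is lower at each step in the KO-labelled library, 76.0% in cells with 1 or 2 and 17.9% in cells with 50 or more, and the Cd74 share is above 50% in cells with 50 or more in both libraries.

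Which populations carried each class was followed with 5 marker genes. Procr, the endothelial protein C receptor, marks stem cells, Pf4 (3 or more UMIs) megakaryocyte-primed cells, Mpo granulocyte and monocyte progenitors, Car1 erythroid progenitors, and Flt3 multipotent progenitors and dendritic lineage cells. In the KO-labelled library 788, 2042, 2551, 2302 and 1045 cells were positive for them in that order, and in the WT library 938, 3178, 2018, 2379 and 668. The sets overlap, since between 34.0% and 65.4% of a set was also positive for another marker. Stem cell markers summed to 761 CPM in Procr-positive cells of the KO-labelled library and 808 CPM in those of the WT library, and to at most 377 CPM in any other set. That list includes Procr, the gene that selects the Procr-positive cells, so its sum there is raised in part by the selection.

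Class I varied little over these populations and was highest in Procr-positive cells. The class I sum was 4755 CPM in Procr-positive cells of the KO-labelled library and 4662 CPM in those of the WT library. It was lowest in Car1-positive cells, at 3449.7 CPM in the KO-labelled library and 3423 CPM in the WT library, so the highest was 1.38-fold and 1.36-fold above the lowest. The order below Procr-positive cells was Pf4, Flt3, Mpo and Car1 in the KO-labelled library, where Pf4-positive (4028 CPM, 4004 to 4052) and Flt3-positive cells (4025 CPM, 3989 to 4062) did not differ beyond counting error, and likewise in the WT library at 3916 CPM (3898 to 3934) and 3919 CPM (3878 to 3961). H2-K1 stood at 1707 CPM in Procr-positive and 1094 CPM in Car1-positive cells of the KO-labelled library, and at 1622 CPM and 1111 CPM in those of the WT library. H2-Q7 was the exception in its highest population, Pf4-positive cells, at 529 CPM in the KO-labelled library and 564 CPM in the WT library. It was lowest in Mpo-positive cells, at 347 CPM and 395 CPM. H2-T23 was also lowest there in both libraries (123 CPM and 105 CPM), as was B2m in the KO-labelled library (927 CPM). B2m and H2-T23 were highest in Procr-positive cells, at 1208 CPM and 184 CPM in the KO-labelled library and 1286 CPM and 164 CPM in the WT library.

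Between libraries the class I sum differed by a ratio of 1.01 to 1.03 in each of the 5 populations. H2-D1 was higher in the KO-labelled library in all 5, with ratios of 1.07 to 1.13, and H2-Q7 was lower in all 5, with ratios of 0.861 to 0.936. H2-T23 had ratios of 1.07 to 1.25, and its interval reached below 1 in Flt3-positive cells (0.997 to 1.16). A class I UMI was found in nearly every cell: with each cell thinned to 3000 UMIs, 99.92% of KO-labelled cells and 99.96% of WT cells had 1 or more, and H2-K1 alone reached 95.7% and 96.2%. H2-Q7 was found in 67.4% of KO-labelled cells and 71.5% of WT cells, and H2-T23 in 39.6% and 33.5%.

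Class II varied far more. Flt3-positive cells were highest, with a class II sum of 995 CPM in the KO-labelled library and 2019.8 CPM in the WT library, a ratio of 0.492 (0.481 to 0.504). Cd74 reached 486 CPM in Flt3-positive cells of the KO-labelled library and 989.7 CPM in those of the WT library, H2-Ab1 236 CPM and 470.5 CPM, H2-Aa 175 CPM and 332 CPM, and H2-Eb1 96.9 CPM and 228 CPM. In Flt3-positive cells of the KO-labelled library all 4 were lower by 1.5-fold or more, beside 3.03% of the genes tested in Flt3-positive cells. Ciita stood at 6.82 CPM in Flt3-positive cells of the KO-labelled library and 17.5 CPM in those of the WT library, a ratio of 0.391 (0.295 to 0.515). Between male Flt3-positive cells (85 in the KO-labelled library, 496 in the WT library) the class II ratio was 0.724 (0.680 to 0.769). Its interval takes each UMI as independent. The male comparison was not made without class II-rich cells, so how far it rests on few cells was not tested.

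These Flt3 values rested on few cells. Class II-rich cells numbered 45 of the 1045 Flt3-positive cells of the KO-labelled library and 61 of the 668 of the WT library, and gave 80.2% and 92.1% of their class II UMIs. Without them the class II sum of Flt3-positive cells was 206 CPM in the KO-labelled library and 172 CPM in the WT library, a ratio of 1.198 (1.12 to 1.28), so the direction turned. H2-Ab1 was then at a ratio of 1.48 (1.34 to 1.65) and Cd74 at 0.935 (0.829 to 1.06), whose interval includes 1. The limit was set after the values were seen and removes cells by the outcome itself. The turn therefore describes the cells left and is not a separate result.

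Procr-positive cells came second in class II, with 357 CPM in the KO-labelled library and 410.2 CPM in the WT library, a ratio of 0.870 (0.829 to 0.913). They stood 1.69-fold (1.62 to 1.77) above Car1-positive cells in the KO-labelled library and 1.65-fold (1.59 to 1.71) in the WT library. Between male cells the direction turned in the KO-labelled library, with a ratio of 0.696 that rests on 58 male Procr-positive cells, while in the WT library it was 1.66. With stricter marker thresholds the ratios were 5.33 in the KO-labelled library and 3.199 in the WT library. Of the 9 genes at 20 CPM or more, 5 were at least 1.5-fold higher in Procr-positive than in Car1-positive cells of the KO-labelled library and 3 in the WT library, beside 15.4% and 11.5% of all genes tested. Class II-rich cells had a small part in this population, with 2 cells in the KO-labelled library and 3 in the WT library that gave 17.4% and 5.47% of its class II UMIs. Their part was larger in the Car1-positive reference, where 15 and 24 such cells gave 55.2% and 65.2%. Without class II-rich cells Procr-positive cells were the highest population in both libraries, at 296 CPM and 389 CPM, or 3.11-fold and 4.47-fold above Car1-positive cells.

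The 4 class II genes of Procr-positive cells did not move together between libraries. Without class II-rich cells Cd74 stood at 94.99 CPM in the KO-labelled library and 169.97 CPM in the WT library, a ratio of 0.559 (0.512 to 0.610). H2-Eb1 stood at 33.2 CPM in the KO-labelled library and 50.7 CPM in the WT library, a ratio of 0.655 (0.562 to 0.762), and H2-Aa at 55.0 CPM and 70.2 CPM, a ratio of 0.784 (0.694 to 0.886). H2-Ab1 went the other way, at 113 CPM in the KO-labelled library and 98.6 CPM in the WT library, a ratio of 1.14 (1.04 to 1.25). Thus 2 of the 9 genes at 20 CPM or more were lower by at least 1.5-fold in Procr-positive cells of the KO-labelled library, beside 3.63% of the genes tested there. Between male Procr-positive cells, of which the KO-labelled library had 58 and the WT library 671, Cd74 was at 67.6 CPM and 164 CPM, a ratio of 0.411 (0.283 to 0.577), from 34 UMIs in the KO-labelled library. The make-up of these cells also differed: the 5-gene multipotent progenitor list stood at 403 CPM in Procr-positive cells of the KO-labelled library and 160 CPM in those of the WT library, the megakaryocyte list at 279 CPM and 916 CPM, and the plasma cell list at 66.7 CPM and 1642 CPM. The part of these lists in the class II ratios was not tested.

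Class II also went with the number of Procr UMIs in the WT library. In cells with 1, 2 and 3 or more Procr UMIs the class II sum was 380.1, 435 and 626 CPM in the WT library (697, 168 and 73 cells). In the KO-labelled library it was 315, 540.4 and 431 CPM (620, 130 and 38 cells). Cd74 stood at 170.0 CPM in cells with 3 or more Procr UMIs of the KO-labelled library, from 60 UMIs, and at 293 CPM in those of the WT library, a ratio of 0.580 (0.429 to 0.771).

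Pf4-positive cells were the lowest in class II with all cells counted, and the only population of the 5 with a higher class II sum in the KO-labelled library. The sum was 157 CPM in the KO-labelled library and 137 CPM in the WT library, a ratio of 1.14 (1.10 to 1.19). H2-Ab1 was at 73.4 CPM in Pf4-positive cells of the KO-labelled library and 54.8 CPM in those of the WT library (1.34, 1.26 to 1.42), while Cd74 was at 38.9 CPM and 44.7 CPM (0.871, 0.808 to 0.938). Without class II-rich cells the sum ratio was 1.29 (1.23 to 1.35), and H2-Ab1 was 1.51-fold higher, the 1 of 7 genes at 20 CPM or more past 1.5-fold, beside 2.7% of the genes tested there. In Mpo-positive cells the class II sum was 221 CPM in the KO-labelled library and 267 CPM in the WT library, and in Car1-positive cells 211 CPM and 248 CPM. Without class II-rich cells these became 108 CPM and 95.9 CPM in Mpo-positive cells, and 95.05 CPM and 87.1 CPM in Car1-positive cells, so the direction turned in both. Here too cells were removed by the outcome itself.

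**Figure D5:**
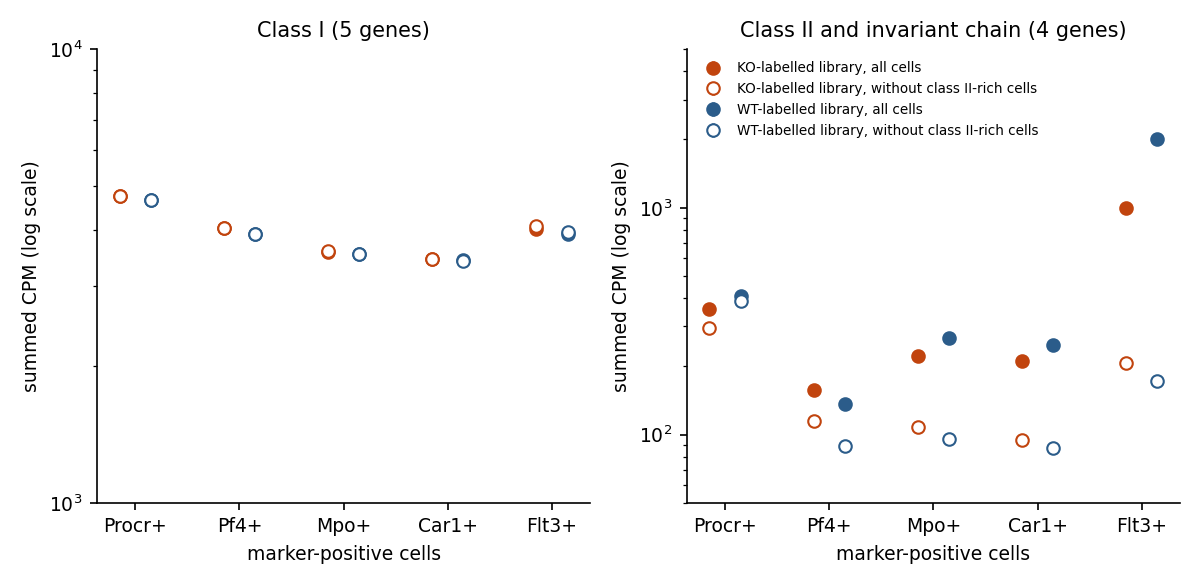
Summed CPM (log scale) of class I (left panel) and class II (right panel) in cells positive for each marker, in the KO-labelled library (left point) and the WT library (right point), with all cells (filled) and without class II-rich cells (open). Bars are exact Poisson intervals, mostly smaller than the points. Class I stays between 3423 and 4755 CPM, while class II in Flt3-positive cells is 206 CPM in the KO-labelled library and 172 CPM in the WT library without class II-rich cells.

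Shares of cells with a UMI gave the same division between H2-Ab1 and Cd74. With cells thinned to 3000 UMIs, which left out 91 shallower cells of the KO-labelled library and 155 of the WT library, any class II UMI was found in 28.9% (28.0 to 29.7) of KO-labelled cells and 26.3% (25.5 to 27.3) of WT cells. Without thinning the shares were 58.3% and 54.5%. H2-Ab1 was found in 21.8% of KO-labelled cells and 16.0% of WT cells after thinning, and Cd74 in 5.83% and 9.84%. Car1-positive cells served as the class II-poor comparison, although with all cells counted Pf4-positive cells were lower in class II. Median depths before thinning were 11110 UMIs in Car1-positive cells of the KO-labelled library and 11977 in those of the WT library. Procr-positive cells had 7794.5 and 7721.5. In Car1-positive cells Cd74 was found in 4.01% (3.25 to 4.90) in the KO-labelled library and 5.94% (5.02 to 6.98) in the WT library. In Procr-positive cells it was found in 18.3% (15.6 to 21.2) in the KO-labelled library and 29.1% (26.2 to 32.2) in the WT library, above the Car1-positive share in both. In Pf4-positive cells Cd74 was at 2.99% in the KO-labelled library and 5.25% in the WT library, no higher than in Car1-positive cells. Without class II-rich cells it was at 2.85% in Pf4-positive and 3.38% in Car1-positive cells of the KO-labelled library, and at 4.89% and 4.98% in those of the WT library. The part of free RNA in these shares was not tested. Ciita was found in 0.993% of KO-labelled cells and 1.32% of WT cells.

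Class II genes were found together above the share in cells without the first gene of the pair, although fewer than 50% of KO-labelled cells with H2-Aa, H2-Ab1 or H2-Eb1 had a UMI of Cd74. Among thinned cells with an H2-Aa UMI, 33.5% also had a Cd74 UMI in the KO-labelled library and 51.7% in the WT library, against 3.73% and 6.35% of cells without H2-Aa. Among cells with a Ciita UMI, 40.6% had Cd74 in the KO-labelled library and 57.7% in the WT library, against 5.48% and 9.20% of the others. By contrast Cd74 was found in 5.74% of KO-labelled cells with H2-K1 and 7.71% of those without it, and in 9.89% and 8.76% in the WT library.

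Across the 10 population sums (5 populations in 2 libraries, which overlap in cells), the class II sum went with Ciita (Pearson r of log2(CPM + 1) of 0.913). It went little with H2-K1 (0.302). These sums include the class II-rich cells, which gave 80.2% of the class II UMIs of Flt3-positive cells in the KO-labelled library and 92.1% in the WT library. In those cells Ciita was also high, and no r without them is given. The r of 0.983 to 0.996 for H2-Aa, H2-Ab1, H2-Eb1 and Cd74 says little, since these 4 genes make up the class II sum. Among 5904 genes the 5 non-members most like it were Commd8 (0.935), Rnase6 (0.921), Rala (0.904), Lsp1 (0.903) and Mgat1 (0.897). For the class I sum they were Ldah (0.991), Dab2ip (0.983), Rab3gap2 (0.981), Tsc22d1 (0.9799) and the class I gene H2-T22 (0.978). These are descriptions over 10 values that share libraries and cells.

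The genes around the members were taken from lists of pathway genes. Of 14 class I peptide loading genes, all at 5 CPM or more, 6 were higher and 8 lower in the KO-labelled library, with a median log2 ratio of -0.05, against -0.08 over 9572 genes. Of those 9572 genes, 3241 were higher and 6331 lower. Tap2, a subunit of the peptide transporter, had a ratio of 1.31 (1.27 to 1.34), while its partner Tap1 stood at 1.03 (1.002 to 1.05). Tapbpl, which edits peptides on class I, had a ratio of 1.205 (1.14 to 1.28). The endoplasmic reticulum chaperones Calr (0.774, 0.766 to 0.782) and Canx (0.789, 0.774 to 0.805) were lower. Nlrc5, the class I transactivator, was at 7.59 CPM in the KO-labelled library and 11.5 CPM in the WT library, a ratio of 0.657 (0.603 to 0.716), named after its values were seen because it is the class I counterpart of Ciita. Of 9 other class I genes at 5 CPM or more, 6 were higher and 3 lower, with H2-Q4 at 1.19, Cd1d1, which shows lipids to NKT cells, at 1.21, and H2-T22, a ligand of gamma delta T cells, at 0.958. In Procr-positive over Car1-positive cells the median log2 ratio of that list was 0.80 in the KO-labelled library and 0.81 in the WT library, against 0.39 and 0.43 for the 5 class I members and 0.09 and 0.07 over all genes.

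The genes that load class II lay mostly on the other side of 1 from the class II members. Of 7 at 5 CPM or more, 5 were higher and 2 lower in the KO-labelled library, with a median log2 ratio of 0.37. Of all 9572 genes at that level, 3241 were higher and 6331 lower. H2-Ob and H2-Oa encode H2-O, the inhibitor of peptide exchange, and stood at 20.2 CPM and 26.7 CPM in the KO-labelled library against 10.3 CPM and 15.3 CPM in the WT library, ratios of 1.96 (1.83 to 2.104) and 1.75 (1.65 to 1.86). H2-DMa, a chain of the exchange factor H2-M, stood at 181 CPM in the KO-labelled library and 140.1 CPM in the WT library (1.29, 1.27 to 1.32), and Ctss, the protease that trims the invariant chain, at a ratio of 1.497 (1.41 to 1.59). Without class II-rich cells these ratios were 2.04 for H2-Ob, 1.85 for H2-Oa, 1.32 for H2-DMa and 1.61 for Ctss. So in the cells outside the class II-rich set H2-Ob, H2-Oa, H2-DMa and H2-Ab1 were higher in the KO-labelled library while Cd74 was lower.

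Among the transcription factors that act on these promoters 5 of 13 were higher and 8 lower, with a median log2 ratio of -0.08. For comparison, 3241 of all 9572 genes at 5 CPM or more were higher and 6331 lower, with a median of -0.08. Spi1, the gene of the myeloid factor PU.1, stood at 115 CPM in the KO-labelled library and 88.5 CPM in the WT library (1.30, 1.27 to 1.33). The Y box subunit Nfya (0.850) and Creb1 (0.889) were lower. In the interferon gamma receptor path 8 of 12 genes were higher and 4 lower, with a median log2 ratio of 0.06. Ifngr1, the ligand-binding receptor chain, stood at 160.5 CPM in the KO-labelled library and 102 CPM in the WT library, a ratio of 1.57 (1.54 to 1.61). The immunity-related GTPase gene Irgm1 was at 1.22 and the kinase gene Jak2 at 0.870, so the listed targets and kinases of the path lay on both sides of 1.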

How the data were processed

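Single-cell RNA-seq (10x Genomics 3′ v2, per the labels' protocols) of 1 RUNX1 KO-labelled and 1 RUNX1 WT library was analysed. The authors deposited whole-number UMI counts for each gene in each barcode. The submitters' processing notes name Cell Ranger 2.1.1 and the build mm10. The matrix headers name software version 3.1.0. Counts were used as deposited. Free RNA and doublets were not removed and no doublet caller was run. UMIs were summed over cells and scaled to 1000000 (CPM), with exact Poisson, conditional binomial (ratios) and Clopper-Pearson (shares) intervals. Total counts were 120578398 UMIs in the KO-labelled library and 113732196 in the WT library. Genes were counted past 1.5-fold among those at 20 CPM or more in either library. Listed genes were named when among the 4 largest ratios of a list at 20 CPM, except 1 that is not reported here, and other named list genes were chosen after their values were seen. Also named were the 5 genes most like each class sum. Cells were read as male from Y-linked UMIs in the absence of Xist. The genes and lists were chosen with earlier results of these data known. On simulated sums with Poisson counting error only, 100 of 100 genes changed 3-fold passed 1.5-fold. None of the spread between libraries was simulated. Of 100 genes changed 1.2-fold 0 passed, and of 5479 unchanged genes 0 passed. At this depth such an outcome was set in advance, so it checks the calculation and not the differences between the libraries. Positions are from GENCODE M21 (GRCm38), matched by gene ID, and 12 of 14 listed class II loading genes and 14 of 18 other class I genes were matched. Alternatives to the filter, scaling (TMM, edgeR 4.0.16), markers and depth were run. Python 3.11.15, numpy 2.4.6, scipy 1.17.1, pandas 2.3.3 and R 4.3.3 were used.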

Additional observations from a re-analysis of the deposited data

Results flagged for a closer look

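The ratio of class II between the KO-labelled and WT libraries lay on opposite sides of 1 in 2 marker-positive populations. It was 0.492 in Flt3-positive cells and 1.14 in Pf4-positive cells. The same was seen for H2-Aa (0.527 in Flt3-positive and 1.196 in Pf4-positive cells), H2-Ab1 (0.502 and 1.34) and H2-Eb1 (0.426 and 1.17). With 1 library per genotype the difference between the populations was not tested. Without cells that had 50 or more class II UMIs the class II ratios were 1.198 in Flt3-positive and 1.29 in Pf4-positive cells, so the opposition was not seen there. As this removes cells by the outcome itself, it is a description of the cells left.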

How the results depend on the processing

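No paired analysis was possible because there was 1 library per genotype, and for the same reason no replicate could be left out. Values are log2 ratios of the KO-labelled over the WT library unless stated. The class I sum (0.021) stayed above 0 under every alternative run: 0.070 with at least 1000 genes and at most 5% mitochondrial UMIs, 0.12 with TMM scaling, 0.075 with totals without ribosomal protein and mitochondrial genes, 0.013 without cells carrying mature-lineage markers (a set that Cd79b and Igkc make broad), 0.028 with equal weight for the 5 populations, 0.041 without B2m and 0.045 without H2-Q7. Left out after seeing the data, the 5% of cells with most UMIs gave 0.059. The class II sum (-0.46) was -0.74, -0.36, -0.40, -0.27 and -0.67 under the first 5 of these, -0.21 between male cells, -0.26 without Cd74, and -0.49 without the 5% of cells with most UMIs. With limits set after seeing the data, which remove cells by the outcome itself, it turned to 0.22 and 0.049 without cells with 10 or 50 or more class II UMIs, and was -0.013 without those with 100 or more. The count of members 1.5-fold apart (1) was 3 with the stricter filter, 3 with equal population weights, 0 between male cells and 0 at 2-fold, and with no floor on CPM 31.8% of all genes were 1.5-fold apart. The log2 ratio of class II in Procr-positive over Car1-positive cells (0.76 in the KO-labelled library, 0.72 in the WT library) was 2.41 and 1.68 with stricter marker thresholds, 1.56 and 1.86 in cells positive for 1 marker only, 1.40 and 1.97 without mature-marked cells, and 1.64 and 2.16 without class II-rich cells. Between male cells it was -0.52 in the KO-labelled library, and the cause was not tested. The share of cells with a class II UMI was 2.50 percentage points higher in the KO-labelled library (1.26 to 3.75), 1.10 at 2000 UMIs and 3.80 without thinning. Of the single genes, Cd74, Ciita, H2-K1, H2-D1, H2-T23 and H2-Q7 kept their direction in the 11 alternatives run on each, while 4 genes changed it. Without cells with 10, 50 or 100 or more class II UMIs, H2-Aa was at 0.18, 0.10 and 0.049 and H2-Ab1 at 0.52, 0.48 and 0.45, and H2-Eb1 was at 0.044 with the limit of 10. H2-Ab1 was also at 0.0081 with TMM scaling, 0.25 without mature-marked cells and 0.080 between male cells, and B2m was at 0.028 with the stricter filter, 0.065 with TMM scaling and 0.021 with totals without ribosomal protein and mitochondrial genes. Depth limits Ciita most, since it had 361 and 498 UMIs in all.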

Other observations

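Cells with 3 or more class II UMIs, 1939 in the KO-labelled library and 1697 in the WT library, had immunoglobulin genes furthest above the other cells. Leaving out the members, the 5 genes with the largest folds in both libraries were Ighg2b, Igkc, Jchain, Igha and Plbd1. Igkc stood at 3730 CPM in these cells of the KO-labelled library and 7158 CPM in those of the WT library, against 85.5 CPM and 34.5 CPM in the other cells. Jchain, which joins IgA and IgM, stood at 451 CPM and 784 CPM, against 15.9 CPM and 3.45 CPM. This was carried by few cells: the plasma cell list stood at 692 CPM in cells with 3 to 9 class II UMIs of the KO-labelled library and 78.8 CPM in those of the WT library, where cells with 0 had 71.6 CPM and 84.7 CPM. It stood at 22767 CPM and 45664 CPM in the 202 and 256 cells with 10 to 49, and at 38380.5 CPM and 30180 CPM in the 97 and 136 cells with 50 or more. Free immunoglobulin RNA and droplets with more than 1 cell were not tested.

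Cells positive for none of the 5 markers, 4056 in the KO-labelled library and 2648 in the WT library, held a wide gap in class II with class II-rich cells counted. The sum was 327 CPM in the KO-labelled library and 621 CPM in the WT library, a ratio of 0.526 (0.513 to 0.539), with Cd74 at 119 CPM and 307 CPM. Class I was 4324 CPM and 4400.4 CPM in the same cells. Unlike the marker-positive populations, this set was not examined without class II-rich cells, and their part in the gap was not tested. Fcgrt, the neonatal Fc receptor, which pairs with B2m, and H2-T24 were chosen after their values were seen. Fcgrt was at 14.4 CPM in the KO-labelled library and 8.87 CPM in the WT library (1.63, 1.51 to 1.76), and H2-T24 at 6.46 CPM and 3.41 CPM (1.89, 1.67 to 2.15).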
